A study of Mus musculus with 6 samples.

Results

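The contacts described here join the 2 chromatin flanks of the Sox9/Kcnj locus on mouse chromosome 11, one bin lying on the centromeric side and the other on the telomeric side of the interval that holds all the engineered duplications and the boundary deletion. Every pair of 10 kb bins with one bin in 109010001 to 110770000 and the other in 112520001 to 114880000 (mm9) was taken, which is 176 bins by 236 bins and 41536 of the 172578 bin pairs of the map (24.1%). The bins of a pair lay 1760 to 5860 kb apart on the reference. These pairs are called spanning pairs below, because the whole of 110770001 to 112520000 lies between their ends. The interval was chosen by measured values: its ends are those of the run of bins with raised contact sums in Dup-C relative to WT. Contact sums of the flanks in these 2 libraries were therefore used in the choice, and the Dup-C against WT values below are a description that supports nothing further.

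Capture Hi-C counts ligated pairs of DNA fragments that were close together in the nucleus, after enrichment of a chosen region with probes. Limb buds of mouse embryos at E12.5 were used, with 1 library for each of 6 genotypes. WT is the control. The deltaBor allele lacks a boundary between 2 chromatin domains, and its lost bin was 111390001 to 111400000, inside the interval. Duplications were found in these maps at 111750001 to 112170000 (420 kb) for Dup-S, 110960001 to 112520000 (1560 kb) for Dup-L and 110770001 to 112520000 (1750 kb) for Dup-C. Dup-LdeltaBor carries the 1560 kb duplication of Dup-L together with the boundary deletion. The sources used here do not give zygosity, strain or the number of animals in a library, and limb buds are a mixture of cell types. Because each genotype is 1 library, the genotypes themselves could not be tested and p-values are not shown. Intervals in parentheses are exact 95% intervals for counting error only, and they treat contacts as independent. They compare libraries and do not cover the spread between animals.

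Chromosomes fold into domains within which contacts are frequent, and boundaries between them limit contacts from one domain to the next. Contacts also become rarer as the length of DNA between 2 points grows. A tandem duplication leaves the sequence outside it in a single copy per allele but lengthens the DNA between its flanks by the length of the repeat, whereas a small deletion of a boundary leaves that length almost as it was. Spanning pairs show this geometry without the copy number of the duplicated bins, because neither of their ends is duplicated or deleted. The locus holds Sox9, a transcription factor needed for cartilage formation, and Kcnj2 and Kcnj16, which encode inward rectifier potassium channels. In the GRCm38 gene table the order from the centromeric side is Abca5, a member of the ABC lipid transporter family, then Map2k6, a kinase that activates p38, then Kcnj16, Kcnj2, Gm11677 and Sox9, followed by Slc39a11 of the zinc transporter family and Sstr2, a somatostatin receptor. Published accounts of the mice place Kcnj2 and Kcnj16 in Dup-C, and Kcnj2 beyond the end of Dup-L. No gene position on mm9 was used here, so regions are given by coordinate and distance.

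Contact sums of the flank bins were described for each mutant. Relative to the median flank bin, the ratio of a bin's contact sum to that in WT had a 5th to 95th percentile range of 0.943 to 1.09 for deltaBor, 0.905 to 1.10 for Dup-S, 0.883 to 1.04 for Dup-L, 0.836 to 1.06 for Dup-C and 0.883 to 1.05 for Dup-LdeltaBor. The duplicated segments themselves stood at 1.57 for Dup-S, 1.78 for Dup-L, 2.05 for Dup-C and 2.48 for Dup-LdeltaBor. Nearly all flank bins thus lay far below the ratio of a duplicated segment. This was largely fixed by choosing flanks outside the duplicated run, most directly in Dup-C, so it describes the flanks and tests nothing. Total contacts were 4144258 in Dup-C, the shallowest map, to 8965219 in Dup-LdeltaBor, the deepest. Spanning pairs took 2.40% of all contacts in WT, 2.49% for deltaBor, 2.29% for Dup-S, 1.42% for Dup-L, 0.901% for Dup-C and 0.988% for Dup-LdeltaBor. In all genotypes with a duplication, Dup-S included, these shares also contain the added contacts of the repeat in the denominator. Counts were therefore scaled so that pairs with both bins in the same flank, at least 2 bins apart (42720 pairs), had equal sums in every library.

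The spanning pairs held 169025 contacts in WT, 157822 in deltaBor and 120959 in Dup-S. They held 117070 in Dup-L, 88560 in Dup-LdeltaBor and 37345 in Dup-C. After scaling, the level was 4.07 contacts per bin pair in WT, 4.71 for deltaBor, 4.39 for Dup-S, 3.00 for Dup-L, 2.41 for Dup-LdeltaBor and 2.24 for Dup-C. The 3 genotypes with a long duplication (1560 or 1750 kb) were thus the 3 lowest, and those without an added stretch or with the short one were the 3 highest. Going up the order, Dup-LdeltaBor was 1.07 times Dup-C (1.06 to 1.09), Dup-LdeltaBor was 0.801 of Dup-L (0.794 to 0.808), WT was 1.35 times Dup-L (1.34 to 1.37), Dup-S was 1.08 times WT (1.07 to 1.09), and deltaBor was 1.07 times Dup-S (1.06 to 1.08). The small steps depended on the scaling. Scaled on same-flank pairs at least 1000 kb apart, Dup-LdeltaBor was 0.979 of Dup-C and Dup-S was 1.00 times WT, while Dup-L stayed below WT and Dup-LdeltaBor below Dup-L. The libraries were thin at single pairs: 9.22% of the spanning pairs were empty in WT and 45.3% in Dup-C, where the fullest pair held 9 contacts, so the regions below are sums over many pairs.

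**Figure D1:**
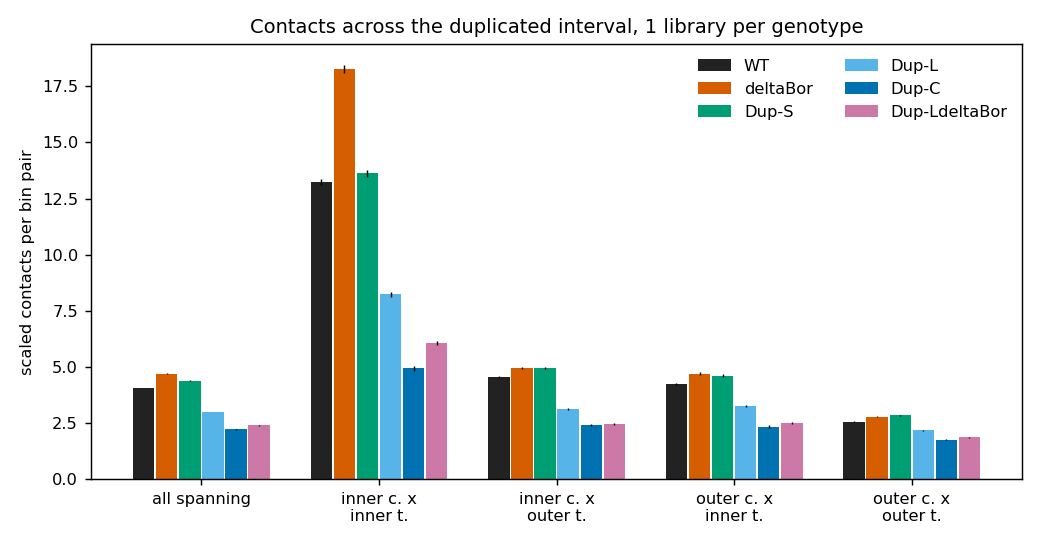
Scaled contacts per bin pair (vertical axis, from 0) for all spanning pairs and for the 4 combinations of inner and outer parts of the centromeric (c.) and telomeric (t.) flank, 1 bar for each of the 6 libraries, with exact 95% Poisson intervals for counting error. Inner parts are the stretches next to the interval, and inner with inner ran from 4.94 in Dup-C to 18.3 in deltaBor, the widest span of the 4.

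Loss of the boundary alone was compared with WT to see whether contacts over the whole interval differ when its boundary is gone and its length is kept. The deltaBor library had 1.16 times the WT level (1.15 to 1.16), and the fold was 1.13 with KR-normalised values, that is, after balancing the map so that bins have equal sums. Same-flank pairs at least 1000 kb apart were not higher, with a fold of 0.970 (0.961 to 0.980). The fold of the spanning pairs ranged from 1.04, scaled to the library total, to 1.45, set against pairs of the telomeric flank at the same separations. Only the 1540 spanning pairs 1760 to 2300 kb apart enter the latter, so pairs and scale change together: these pairs with the usual scaling gave 1.40, and all spanning pairs on the telomeric scale gave 1.19.

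The short duplication lies between the flanks on one side of the boundary and adds 420 kb. Dup-S had 1.08 times the WT level (1.07 to 1.09), but the direction turned, to 0.956 with library-total scaling and to 0.989 for the 1540 closest pairs set against telomeric-flank pairs at the same separations. With the usual scaling these pairs stood at 1.01, and all spanning pairs on that telomeric scale at 1.05. Same-flank pairs at least 1000 kb apart had a like fold of 1.08 (1.07 to 1.09). Scaled on these distant same-flank pairs, the Dup-S fold of the spanning pairs was 1.00. The fold was thus above 1 under the usual scaling, but this was lost on that distant scale. It was below 1 when the library total set the scale, and when both pairs and scale were limited to the shortest separations.

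The long duplications cover the boundary. Dup-L, with 1560 kb added, had 0.738 of the WT level (0.733 to 0.744), and 0.766 with KR-normalised values. Dup-C, with 1750 kb added, stood at 0.550 (0.544 to 0.556) and 0.585 with KR-normalised values. Dup-L lay below WT under each of the 13 alternatives tried, over a range of 0.592 to 0.766. Dup-C ranged from 0.376 to 0.627 under them. Nothing is read from the Dup-C range, since the interval came from Dup-C and WT.

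Distant contacts inside a flank were not reduced in Dup-L, where same-flank pairs at least 1000 kb apart had a fold of 1.04 (1.03 to 1.05). In Dup-C the same pairs stood at 0.943 (0.931 to 0.955), and pairs of the telomeric flank at least 1760 kb apart at 0.877 (0.834 to 0.922), so the Dup-C library was also lower at long separations that do not cross the interval. The part of this in the Dup-C fold was not tested. With 190 kb more duplicated on the centromeric side, Dup-C had 0.745 of the Dup-L level (0.737 to 0.754), and between 0.605 and 0.855 under the alternatives. Against Dup-L, same-flank pairs at least 1000 kb apart stood at 0.905 (0.894 to 0.917). Telomeric-flank pairs at least 1760 kb apart stood at 0.871 (0.828 to 0.916). The part of this in the Dup-C over Dup-L fold was not tested either.

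Dup-LdeltaBor was compared with WT and with each of the alleles it combines. It had 0.591 of the WT level (0.586 to 0.596), 0.801 of the Dup-L level (0.794 to 0.808) and 0.511 of the deltaBor level (0.507 to 0.516). With KR-normalised values these folds were 0.623, 0.814 and 0.552. Same-flank pairs at least 1000 kb apart stood at 1.04 (1.03 to 1.05) against WT, 0.994 (0.985 to 1.00) against Dup-L and 1.07 (1.06 to 1.08) against deltaBor, so none of these was lower in Dup-LdeltaBor beyond its interval.

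The boundary deletion thus went with more spanning contacts on the unduplicated chromosome (1.16 times WT) and with fewer in the presence of the duplication (0.801 of Dup-L). Put the other way, the duplication went with 0.738 of the level where the boundary was present and with 0.511 where it was absent. The ratio of these folds, from 4 separate libraries, was 0.693 (0.685 to 0.700). The opposite direction was seen in each of the 4 combinations of inner and outer flank parts defined below, where the ratio ran from 0.533 (0.520 to 0.547) for the inner parts with each other to 0.793 (0.779 to 0.808) for the outer parts. Both folds kept their direction under all 13 alternatives. The duplicated segment itself stood at 1.78 in Dup-L and 2.48 in Dup-LdeltaBor, in contact sums relative to WT. These 2 libraries thus differed in that measure as well, and zygosity is not given. A difference in repeat dose cannot be told apart from the boundary deletion in this contrast, and its part was not tested.

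To see how widely these differences were spread, the spanning pairs were divided into 432 blocks of 100 kb by 100 kb counted outward from the ends of the interval, of which 391 were full. A block was counted as lower or higher when its scaled contacts differed by at least 1.5-fold. The same count over all 1830 blocks of the map gives the background. It includes same-flank blocks, which set the scale, and blocks with duplicated bins, whose copy number raises counts. A low background of lower blocks was therefore likely in advance for the duplications. In Dup-L 71 blocks were lower than in WT (16.4%), against a background of 4.48%. With library-total scaling 257 were lower, but no background is given at that scaling. In Dup-LdeltaBor 229 blocks were lower than in WT (53.0%), against a background of 14.8%. Against deltaBor, Dup-LdeltaBor had 270 lower blocks (62.5%), with a background of 16.7%. In Dup-C 267 blocks were lower than in WT, beside a background of 15.1% from which nothing is read, since the interval came from this contrast.

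Smaller differences gave few such blocks. Dup-LdeltaBor had 14 blocks lower than in Dup-L (3.24%), against 1.42% over the map. Of the 432 block folds 400 lay below 1, with a median of 0.818, beside a median of 0.993 over same-flank blocks. The share of all map blocks below or above 1 is not given for any comparison, so such counts are a description only. Scaling to the library total gave 122, with no background given at that scaling. Dup-C had 78 blocks lower than in Dup-L (18.1%), against 4.59%, but 33 when scaled on same-flank pairs at least 1000 kb apart and 228 with library-total scaling. Contact sums of Dup-C helped to set the interval, and the counts at other scalings have no background, so nothing is read from any of them. Dup-S had 0 lower blocks, with a background of 0.0546%, and a median fold of 1.09. Its block intervals lay above 1 in 79 cases and below 1 in 1. The same-flank blocks of Dup-S, which set the scale, also had a median above 1, at 1.03. In deltaBor 3 blocks were higher (0.694%) and 1 lower (0.231%), below the background shares of 4.86% and 1.58%. The median block fold of deltaBor was 1.08, and 336 of the 432 blocks lay above 1, beside a median of 0.984 over same-flank blocks.

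Outside the spanning pairs the map held 1398 blocks, and 11 of these (0.787%) were lower in Dup-L than in WT and 41 (2.93%) in Dup-LdeltaBor. Most of the lower blocks of the map in these comparisons therefore joined the flanks. The other blocks either lie within a flank, where pairs set the scale, or have a bin in the interval. Most of the interval is duplicated in these genotypes, which raises its counts. Few lower blocks were thus likely there in advance, and nothing is read from the contrast. Among the 471 blocks with both ends in the same flank, none was lower in Dup-L, Dup-LdeltaBor, deltaBor or Dup-S against WT, and 8 were lower in Dup-C. Same-flank pairs set the scale, so their median is held near 1 (0.980 to 1.03 over the 5 comparisons with WT), but their spread is not.

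**Figure D2:**
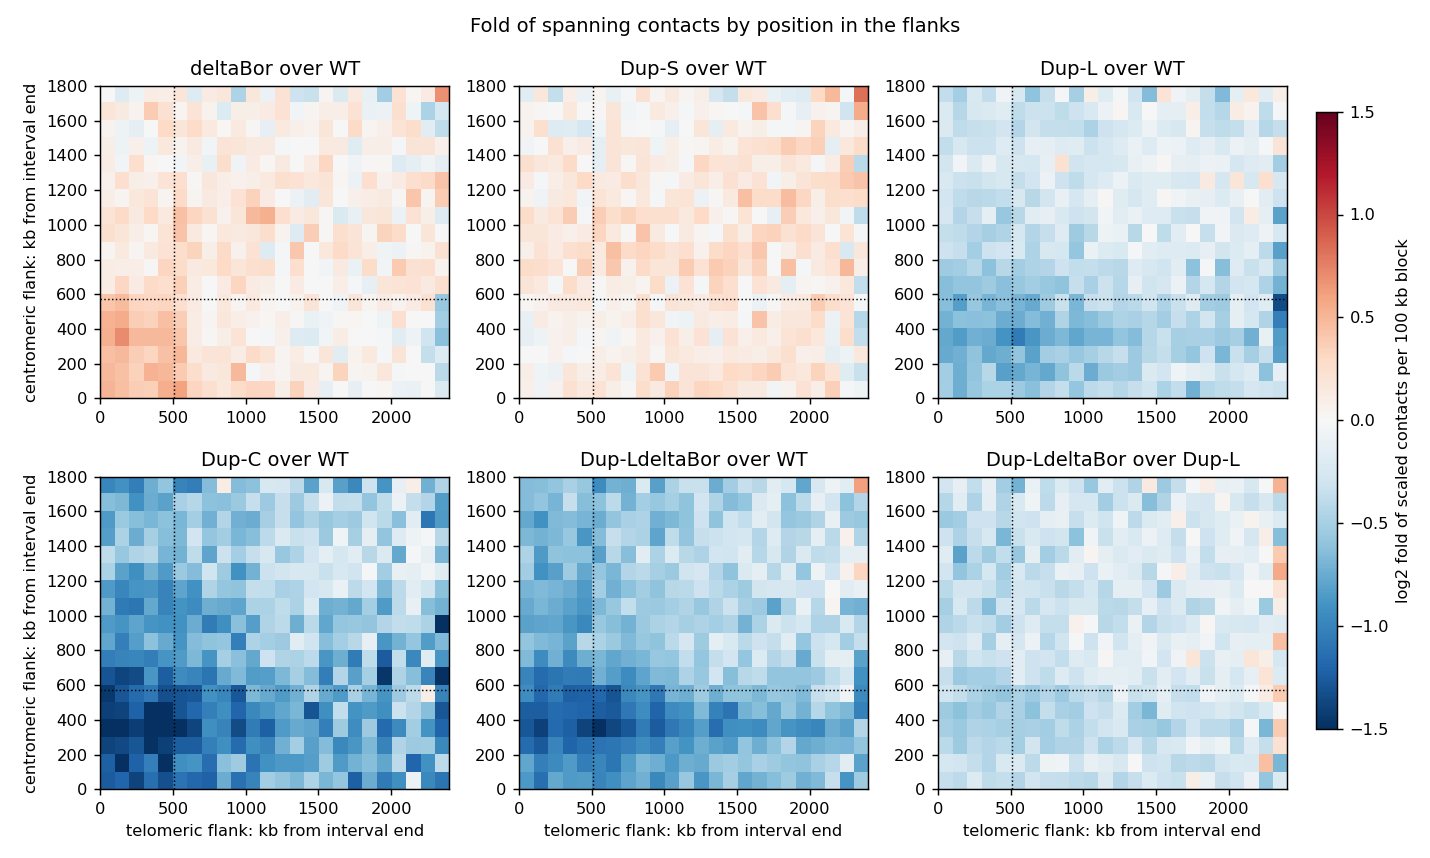
Log2 fold of scaled contacts in each 100 kb block, placed by its distance in kb from the interval end in the telomeric flank (horizontal) and in the centromeric flank (vertical), 1 panel per comparison. Colours stop at 1.5 in either direction, dotted lines mark the outer ends of the inner parts (510 and 570 kb), and the lowest blocks of the Dup-L, Dup-C and Dup-LdeltaBor panels over WT gather in the lower left corner, where deltaBor has most of its highest full blocks.

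In WT the flanks are themselves divided. Between the interval and the nearest WT insulation minimum, a bin across which few contacts pass, lay an inner centromeric part, 110200001 to 110770000 (570 kb), and an inner telomeric part, 112520001 to 113030000 (510 kb). The minima had scores of -1.34 and -0.91, the log2 of the mean count of contacts crossing a bin within 500 kb over the mean of all bins. The outer parts ran on to the ends of the map, 1190 and 1850 kb long. This division was made after the data were seen. The 2907 pairs of inner with inner are 22.8% of the spanning contacts of WT, and stood at 2.11 times the mean of all map pairs at their separations, against 1.04 times for outer with outer.

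The inner parts had the largest differences between the libraries. Their level with each other was 13.2 contacts per bin pair in WT, 18.3 for deltaBor, 13.6 for Dup-S, 8.24 for Dup-L, 6.07 for Dup-LdeltaBor and 4.94 for Dup-C. Relative to WT the folds were 1.38 (1.36 to 1.40) for deltaBor, 1.03 (1.01 to 1.05) for Dup-S, 0.623 (0.612 to 0.633) for Dup-L, 0.458 (0.450 to 0.467) for Dup-LdeltaBor and 0.373 (0.363 to 0.384) for Dup-C. Of the summed difference between deltaBor and WT, 55.5% lay in these inner pairs, 2907 of the 41536 spanning pairs. The gain of deltaBor and the deficits of Dup-L and Dup-LdeltaBor were thus greatest over the same inner parts, which lie closest to each other on the chromosome. The Dup-C values are a description only, since the interval came from Dup-C and WT.

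The outer parts differed less. Their level with each other was 2.57 contacts per bin pair in WT, 2.78 for deltaBor, 2.85 for Dup-S, 2.18 for Dup-L, 1.87 for Dup-LdeltaBor and 1.77 for Dup-C. The folds over WT were 1.08 (1.07 to 1.09), 1.11 (1.09 to 1.12), 0.847 (0.837 to 0.858), 0.727 (0.717 to 0.736) and 0.688 (0.676 to 0.701) in the same order. The fold of inner with inner divided by that of all other spanning pairs was 1.27 (1.247 to 1.287) for deltaBor, 0.941 (0.925 to 0.958) for Dup-S, 0.806 (0.792 to 0.821) for Dup-L, 0.727 (0.712 to 0.742) for Dup-LdeltaBor and 0.619 (0.601 to 0.638) for Dup-C.

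Inner pairs are the closest, so both kinds were also compared at like separations, a comparison added after the data were seen. At 2270 to 2820 kb both occur, with 1581 inner and 2871 other spanning pairs, and each separation was given the same weight in both kinds. The inner pairs stood at 14.9 and the others at 7.17 contacts per pair in WT, a ratio of 2.07. That ratio was 2.26 for deltaBor, 1.99 for Dup-S, 1.92 for Dup-L, 1.78 for Dup-LdeltaBor and 1.61 for Dup-C. The inner pairs were thus the more frequent at like separations in all 6 libraries, most in deltaBor and least in Dup-C.

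Folds over WT at these separations were 1.35 for inner and 1.24 for other pairs in deltaBor, 1.05 and 1.09 in Dup-S, 0.603 and 0.653 in Dup-L, 0.432 and 0.504 in Dup-LdeltaBor, and 0.356 and 0.458 in Dup-C. The inner fold divided by the other fold was 1.09 (1.05 to 1.13) for deltaBor, 0.960 (0.924 to 0.997) for Dup-S and 0.923 (0.887 to 0.961) for Dup-L. It was 0.857 (0.820 to 0.896) for Dup-LdeltaBor and 0.777 (0.729 to 0.829) for Dup-C. These 5 intervals are approximate, on the log scale, for counting error only. Every quotient lay nearer to 1 than the one over all separations, and none of the intervals included 1. For Dup-C this is a description only, since that library and WT set the interval.

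Along the centromeric flank, each 100 kb stretch was summed with the whole telomeric flank. In WT the highest was 110270001 to 110370000, 400 kb from the interval, with 19593 contacts, and the stretch 110570001 to 110670000, 100 kb from it, held only 9981. From 600 kb outward every full stretch held between 5573 and 8387. Stretches of the inner part thus held more contacts with the opposite flank than those of the outer part, with a dip close to the interval. In Dup-L the fold was lowest for 110370001 to 110470000 (0.597), and the same stretch was lowest in Dup-C (0.397) and Dup-LdeltaBor (0.435) and had the highest fold of the centromeric stretches in deltaBor.

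Along the telomeric flank the stretches nearest the interval were alike. The first 5 held 12067 to 13250 contacts in WT, led by 112920001 to 113020000, and the count declined to 2903 in the last full stretch, 114720001 to 114820000. The stretch 112620001 to 112720000 had the lowest fold in Dup-L (0.658) and Dup-LdeltaBor (0.480), and the highest in deltaBor (1.32). In Dup-C the lowest was 112920001 to 113020000 (0.418). Every full stretch of both flanks lay below WT in Dup-L, Dup-C and Dup-LdeltaBor, and above WT in deltaBor, where the folds fell to 1.00 at the far telomeric end.

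**Figure D3:**
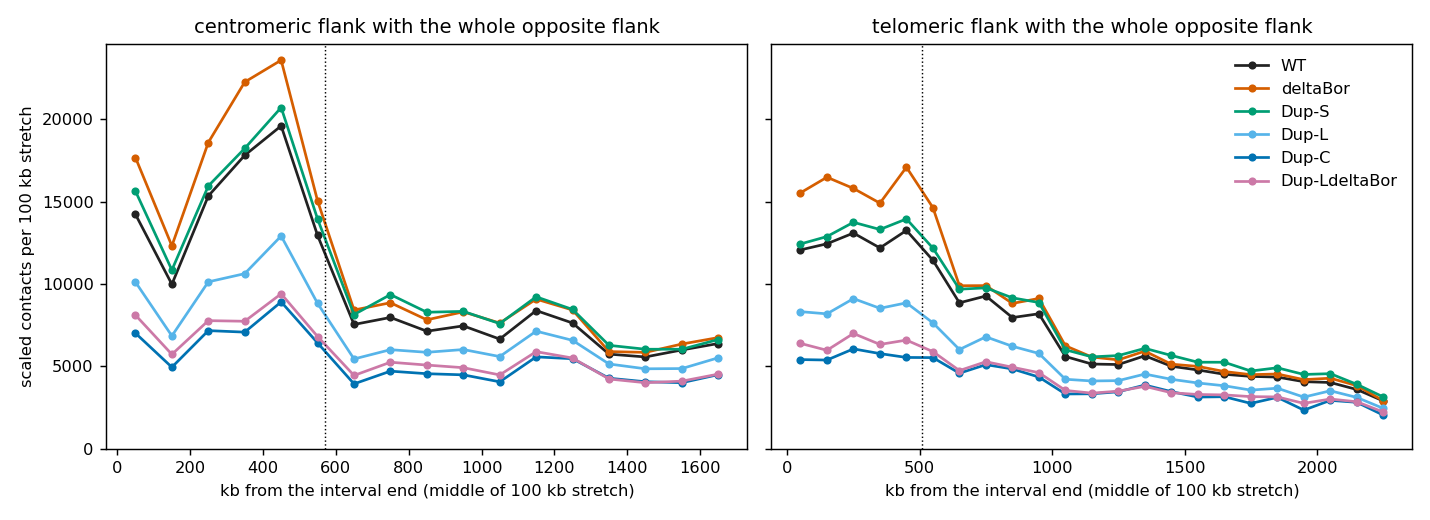
Scaled contacts of each full 100 kb stretch of one flank with the whole opposite flank, against the distance of its middle from the interval end in kb, for the 6 libraries (left, centromeric flank; right, telomeric flank). Dotted lines mark the outer ends of the inner parts at 570 and 510 kb, and the highest stretch of each of the 6 curves lies between them and the interval.

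From 2060 kb on, spanning contacts declined with separation in every library, and the libraries drew together up to 5650 kb. In classes of 300 kb, pairs 2060 to 2350 kb apart had 12.7 contacts each in WT, 18.0 for deltaBor, 12.9 for Dup-S, 8.10 for Dup-L, 5.87 for Dup-LdeltaBor and 4.79 for Dup-C. At 5360 to 5650 kb the levels were 1.62, 1.64, 1.72, 1.45, 1.33 and 1.30 in the same order. Over these classes the fold over WT moved from 1.41 to 1.01 in deltaBor, from 0.636 to 0.896 in Dup-L, and from 0.461 to 0.820 in Dup-LdeltaBor. In Dup-C it moved from 0.376 to 0.803. In Dup-S it was 1.01 and 1.06, on either side of 1.11 at 3260 to 3550 kb. The last class, 5660 to 5860 kb with 231 pairs, had folds of 0.930 for deltaBor, 1.09 for Dup-S, 0.875 for Dup-L, 0.810 for Dup-LdeltaBor and 0.661 for Dup-C, where the interval was 0.494 to 0.874. The differences from WT were thus largest among the shorter separations in deltaBor and in the 3 long duplications.

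**Figure D4:**
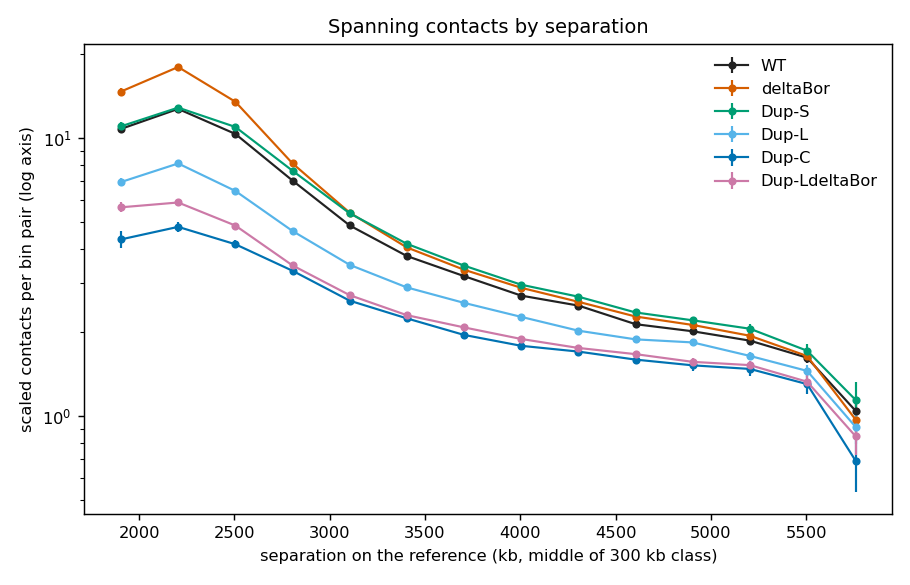
Scaled contacts per bin pair (log axis) against reference separation in kb, in 300 kb classes, for the 6 libraries, with exact 95% Poisson intervals. The curves of deltaBor and Dup-C, highest and lowest at 2060 to 2350 kb (18.0 and 4.79), draw together toward 5360 to 5650 kb (1.64 and 1.30).

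A tandem repeat of the measured length adds that length between the flanks, so the decay of WT contacts over the same length was read from the WT map alone. For each spanning pair, the mean WT level of all map pairs at its separation plus the added length was divided by that at its separation, as far as the map reached. For 420 kb this ratio was 0.836, against a Dup-S fold of 1.08 (1.07 to 1.09) over the same 38455 pairs. For 1560 kb it was 0.539, against 0.700 (0.694 to 0.706) in Dup-L and 0.542 (0.537 to 0.547) in Dup-LdeltaBor over 23144 pairs. For 1750 kb it was 0.499, against 0.485 (0.478 to 0.492) in Dup-C over 19800 pairs. Dup-S and Dup-L thus lay above the WT decay, by factors of 1.29 and 1.30, while the folds of Dup-LdeltaBor and Dup-C were 1.01 and 0.973 times it.

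The closeness depended on which WT pairs were used. With same-flank and spanning pairs alone, without those that have a bin in the interval, the WT ratios were lower, at 0.774, 0.409 and 0.368 for 420, 1560 and 1750 kb, and all 4 duplications lay above them. By separation, the Dup-L fold was 0.644 against a WT ratio of 0.423 at 1760 to 2050 kb and 0.801 against 0.607 at 3560 to 3850 kb. For Dup-LdeltaBor the pairs of values were 0.522 and 0.423 in the first of these classes and 0.654 and 0.607 in the last. Between them its fold also fell below the WT ratio, at 0.468 against 0.477 (2360 to 2650 kb) and 0.495 against 0.517 (2660 to 2950 kb). Dup-C also lay on both sides, with 0.401 against 0.457 at 2360 to 2650 kb and 0.597 against 0.558 at 3260 to 3550 kb. The order of Dup-L above Dup-LdeltaBor, which share the length added, held in every class. The folds set beside these ratios carry the dependence on scaling given above. Zygosity was not given, so how many chromosomes in a library carried the added length is not known.

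**Figure D5:**
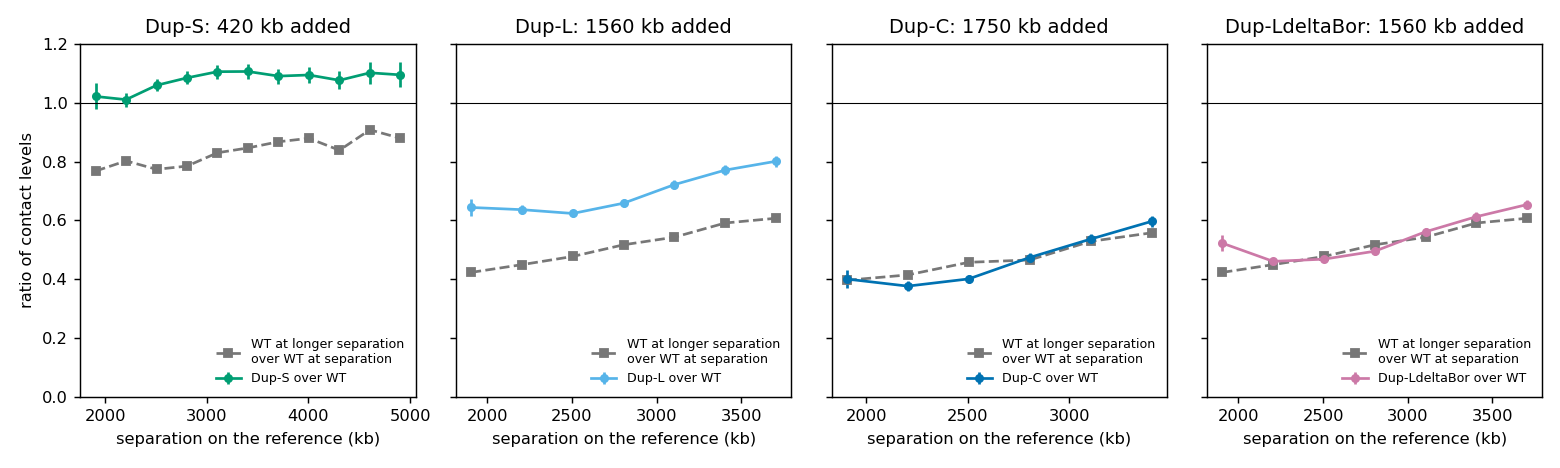
Fold over WT of spanning pairs (coloured, with 95% intervals) and the ratio of the WT level at the separation plus the added length to that at the separation (grey squares), against reference separation in kb, 1 panel per duplication. Dup-S and Dup-L lie above the grey line in every class. Over all pairs that the map reached, Dup-C had 0.485 against 0.499 and Dup-LdeltaBor 0.542 against 0.539. At 1760 to 2050 kb Dup-LdeltaBor stood higher, at 0.522 against 0.423. The grey line uses all WT map pairs. With same-flank and spanning pairs alone, the WT ratios over all pairs were lower (0.368 for Dup-C, 0.409 for Dup-LdeltaBor).

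Single blocks show the pattern at higher resolution. The block with the highest WT level over the mean at its separation (3.65 times) joined 110270001 to 110370000 with 112920001 to 113020000, 2650 kb apart. It held 1902 contacts in WT, 2098 for deltaBor, 1306 for Dup-S, 1066 for Dup-L, 734 for Dup-LdeltaBor and 269 for Dup-C before scaling. After scaling these are 1902, 2598, 1969, 1136, 828 and 670. Its 4 nearest followers in WT, at 2.97 to 3.62 times the mean, all joined 110270001 to 110470000 with 112820001 to 113120000, so the spanning contacts that stood highest for their separation formed 1 patch, 300 to 500 kb into the centromeric and 300 to 600 kb into the telomeric flank. The lowest blocks of WT, at 0.556 to 0.649 of the mean, joined 110570001 to 110670000 with the telomeric flank beyond 113620000 in 4 of 5 cases.

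In and around that patch the long duplications also differed most from WT. The lowest full block in Dup-L, with 110370001 to 110470000 and 113020001 to 113120000, held 710 contacts against 1566 in WT, a fold of 0.483 (0.441 to 0.528). The same block was the lowest in Dup-LdeltaBor, with 473 contacts and a fold of 0.341 (0.307 to 0.378). In Dup-C the lowest joined 110370001 to 110470000 with 112920001 to 113020000, with 197 contacts against 1983, a fold of 0.247 (0.213 to 0.286). All 5 lowest blocks of each of these comparisons with WT lay within 700 kb of the interval on both sides, with folds up to 0.565 in Dup-L, 0.408 in Dup-LdeltaBor and 0.321 in Dup-C. The highest block folds, up to 1.19, 1.05 and 1.06, had intervals that included 1.

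In deltaBor the highest full block, 110370001 to 110470000 with 112620001 to 112720000, held 2291 contacts against 1736 in WT, a fold of 1.63 (1.53 to 1.74). The same block was the lowest of Dup-LdeltaBor over deltaBor, with 581 contacts and a fold of 0.231 (0.211 to 0.253). The block next to both ends of the interval, 110670001 to 110770000 with 112520001 to 112620000, was not the extreme of any comparison with WT. It held 1169 contacts in WT, 1349 for deltaBor, 817 for Dup-S, 771 for Dup-L, 571 for Dup-LdeltaBor and 198 for Dup-C, with folds over WT of 1.43, 1.05, 0.703, 0.551 and 0.422 in the order of these 5 mutants. The lowest block of Dup-LdeltaBor over Dup-L, at 0.574 (0.462 to 0.711), had 135 and 249 contacts and lay 1300 kb into the centromeric flank, outside the patch. In Dup-S the intervals of the 5 lowest blocks, 0.812 to 0.878, all included 1. Those of its 5 highest, 1.36 to 1.41, began at 1.12 to 1.17 and so lay above 1 with this scaling, and these blocks were 3250 to 4750 kb apart.

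The fullest spanning bin pair of WT, 110350001 to 110360000 with 113020001 to 113030000, held 51 contacts in WT, 41 for deltaBor, 34 for Dup-S, 21 for Dup-L, 12 for Dup-LdeltaBor and 4 for Dup-C. The pair 110390001 to 110400000 with 113020001 to 113030000 held 43 in WT and 84 in deltaBor, the fullest spanning pair of that library, and 39, 13, 12 and 3 in Dup-S, Dup-L, Dup-LdeltaBor and Dup-C. These counts are not scaled and rest on few contacts.

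Seen from one flank, the opposite flank took a changing share of its contacts. Of the contacts of the centromeric flank, it took 10.8% for WT, 11.8% for deltaBor, 10.8% for Dup-S, 7.66% for Dup-L, 6.03% for Dup-LdeltaBor and 5.86% for Dup-C. Of those of the telomeric flank, it took 7.20%, 8.28%, 7.48%, 5.07%, 3.97% and 3.80% in the same order. The share that went to the interval itself was 31.1% for the centromeric flank in WT and 36.9% in Dup-L, 40.4% in Dup-LdeltaBor and 38.1% in Dup-C, where the interval or most of it is present in more copies. These shares do not use the scaling of the folds but contain that copy number.

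The relief of high and low blocks was largely shared. Across the 391 full blocks, after division by the mean of spanning pairs at each separation, Spearman's rho with WT was 0.911 for deltaBor, 0.904 for Dup-S, 0.889 for Dup-L, 0.842 for Dup-LdeltaBor and 0.796 for Dup-C. The blocks share bins, and the coefficient is lowest in the library with the fewest contacts, so these values describe the maps only. Dup-C blocks held as few as 5 contacts, at which depth small differences of single blocks were not detectable.

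The authors' deposited tables of differences between scaled maps use factors of their own. In the authors' deposited table for Dup-C minus WT, 68.4% of the spanning pairs were below 0, against 64.5% of same-flank pairs. For Dup-L minus WT the authors' deposited table had 55.6% of spanning pairs and 50.9% of same-flank pairs below 0, and for Dup-LdeltaBor minus Dup-L it had 49.9% and 49.8%. Such a share counts pairs and not contacts. In the authors' deposited table for Dup-LdeltaBor minus Dup-L, values summed to -4664 over the spanning pairs and to -909 over the same-flank pairs. In the authors' deposited tables against WT the sum was further below 0 over the same-flank pairs. The authors' deposited values were -9161 and -12918 for Dup-L and -16274 and -43755 for Dup-C. They were 1718 and -41196 for deltaBor, and 398 and -28440 for Dup-S. In the authors' deposited tables for deltaBor and Dup-S minus WT, 45.4% and 48.7% of the spanning pairs were below 0, against 65.2% and 55.8% of same-flank pairs. Same-flank pairs were thus not centred on 0 in 3 of the 5 maps. A smaller share of the spanning than of the same-flank pairs was below 0 for deltaBor and Dup-S. In the authors' deposited log2 map of WT over deltaBor, 51.9% of spanning and 36.1% of same-flank pairs were below 0. For Dup-LdeltaBor over Dup-L the authors' deposited log2 map had 66.1% and 66.0%.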

How the data were processed

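Capture Hi-C was done on E12.5 limb buds, 1 library per genotype. Per the submitters' processing notes, the mapper was Bowtie2 2.2.6 and the build mm9. The sources used here do not give pair filtering, duplicate removal or the balancing tool, and duplicates left in would make the intervals too narrow. The authors deposited raw contact counts per pair of 10 kb bins and a KR-balanced signal map of each library. The authors' deposited comparison maps hold log2 ratios (2 maps) and differences of scaled counts, treated as a score (5 maps).

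The Dup-C and Dup-S positions are offsets from 109010001. Raw counts were used throughout, with KR values as an alternative. Counts were scaled on same-flank pairs at least 2 bins apart, and the error of the scaling is not part of the intervals. Folds carry Clopper-Pearson 95% intervals, and levels exact Poisson ones. Duplicated segments were the runs of bins whose log2 contact ratio to WT (pseudocount 0.5) stood out most. Blocks called lower or higher differ at least 1.5-fold. Insulation minima had a prominence of at least 0.5 log2. Separations were grouped in 300 kb classes in place of the 100 kb planned, since the widest and narrowest separations held few pairs. Named blocks were the 5 lowest and 5 highest full blocks per comparison with at least 50 counts in both libraries, the 5 with the highest WT level over separation and the block next to both ends. The members, blocks and comparisons were chosen with earlier results of these data known. The inner and outer parts, the matched separations (weighted by the smaller pair count, with delta-method intervals), 2 of the alternatives, the lowest WT blocks, the single bin pairs, the counts outside the spanning pairs and the ratios of neighbours in the order of levels were added after seeing the values. Alternatives were KR values, other scalings, bins or separations left out, another fold threshold or block size and a minimum of 50 counts. The spanning and block folds with their intervals, the added-length ratio and the segment search were tested on simulated data with independent noise. The matched separations, the ratio of folds and the insulation minima were not. Python 3.11.15, numpy 2.4.6, pandas 2.3.3 and scipy 1.17.1 were used. Genes were named from a GRCm38 table, and no sequence is shown.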

Additional observations from a re-analysis of the deposited data

Results flagged for a closer look

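The boundary deletion went with opposite directions on the 2 backgrounds, and the difference was not tested across genotypes because each has 1 library. Over all spanning pairs its fold was 1.16 without the duplication (deltaBor over WT) and 0.801 within it (Dup-LdeltaBor over Dup-L). For inner with inner parts the folds were 1.38 and 0.736, for the inner centromeric with the outer telomeric part 1.09 and 0.784, for the outer centromeric with the inner telomeric part 1.11 and 0.769, and for outer with outer 1.08 and 0.858. The 5 pairs of values come from the same 4 libraries and are not independent of each other. Dup-L and Dup-LdeltaBor also differed in the contact ratio of the duplicated segment to WT (1.78 and 2.48). A difference in repeat dose cannot be told apart from the boundary deletion here. No group had more than 1 sample, so no sample could be set apart from others of its genotype.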

How the results depend on the processing

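No paired analysis was possible because each genotype has 1 library. In what follows the 8 folds of all spanning pairs are given in the order deltaBor, Dup-S and Dup-L over WT, next Dup-C and Dup-LdeltaBor over WT, then Dup-LdeltaBor over Dup-L and over deltaBor, then Dup-C over Dup-L. The folds kept their direction in all 13 alternatives except Dup-S over WT, which kept it in 11. Scaling to the library total gave 1.04, 0.956 (reversed), 0.592, 0.376, 0.412, 0.696, 0.397 and 0.635, and it counts the repeat's own contacts. Setting spanning pairs against telomeric-flank pairs at the same separations gave 1.45, 0.989 (reversed), 0.635, 0.440, 0.484, 0.763, 0.335 and 0.693. It takes in only the 1540 spanning pairs at 1760 to 2300 kb. These pairs with the usual scaling gave 1.40, 1.01, 0.639, 0.386, 0.480, 0.751, 0.342 and 0.605, and all spanning pairs scaled on those telomeric-flank pairs gave 1.19, 1.05, 0.734, 0.627, 0.597, 0.814, 0.500 and 0.855, both chosen after seeing the data. Scaling on same-flank pairs at least 1000 kb apart gave 1.19, 1.00, 0.709, 0.583, 0.571, 0.806, 0.479 and 0.823. Equal weight per separation gave 1.19, 1.05, 0.724, 0.592, 0.582, 0.803, 0.486 and 0.813. Scaling pairs at least 10 bins apart gave 1.18, 1.06, 0.730, 0.562, 0.586, 0.803, 0.498 and 0.770. Scaling on the centromeric flank gave 1.14, 1.05, 0.747, 0.564, 0.607, 0.814, 0.534 and 0.756, and on the telomeric flank 1.17, 1.10, 0.733, 0.542, 0.582, 0.794, 0.498 and 0.739. KR-normalised values gave 1.13, 1.07, 0.766, 0.585, 0.623, 0.814, 0.552 and 0.763. Without 100 kb beside the interval the folds were 1.14, 1.08, 0.744, 0.563, 0.598, 0.803, 0.525 and 0.756, and up to 4000 kb they were 1.19, 1.08, 0.703, 0.502, 0.546, 0.776, 0.459 and 0.714. Leaving out the 10 bins of lowest coverage moved no fold beyond its interval.

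Counts of lower blocks follow the same order of comparisons. No share over all blocks of the map is given at these other settings, so nothing about the spanning pairs is read from the counts. Scaling to the library total gave 6, 1, 257, 426, 425, 122, 406 and 228, with 0 higher in deltaBor. A threshold of 0.8 for lower blocks, or its inverse for higher ones, gave 10, 8, 219, 377, 361, 171, 381 and 250, with 55 higher in deltaBor. KR-normalised values gave 2 lower blocks in deltaBor and 2 in Dup-S. Scaling on same-flank pairs at least 1000 kb apart gave 0 in deltaBor and 33 for Dup-C over Dup-L. With blocks of 200 kb, 0% were lower and 0% higher in deltaBor, 0% were lower in Dup-LdeltaBor over Dup-L and 10.2% in Dup-C over Dup-L. With at least 50 counts, 0% were lower in deltaBor. Of the 54 alternatives for block counts, 29 stayed within 1.5 times the count reported. The WT ratio at the added length, from same-flank and spanning pairs alone, was 0.774 for Dup-S, 0.409 for both genotypes with 1560 kb added and 0.368 for Dup-C. Apart from fewer pairs or blocks entering, the cause of these shifts was not tested. Depth limits single blocks most in Dup-C, the map with the fewest contacts.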
